A study of Oryza sativa with 6 samples.

Results

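The genes described are those whose transcripts were lower under salt in the long, branching L-type lateral roots of rice and close to their control level in nodal roots and in S-type lateral roots. Messenger RNA was sequenced from rice roots of the genotype labelled Mulai. The groups were L-type laterals, nodal roots and S-type laterals after 7 days in 50 mM NaCl, and the same root types grown for the same time without added salt. There is a single library for each of the 6 groups and hence no replicate, and the labels tell neither how many plants were pooled nor whether one plant gave several root types. The values are scaled fragments, that is the sequenced fragments assigned to a gene, multiplied by 1 factor per library. A gene was taken when log2 of salt over control, with 1 added to each value, was at most -1 in L-type and between -0.5 and 0.5 in nodal and in S-type roots. It also needed at least 50 scaled fragments in the higher library of each pair. Of 37942 gene models, 13254 passed this floor and 175 met the whole rule. The rule used the salt to control ratios of all 6 libraries, so these ratios are descriptions and carry no test.

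Rice has a fibrous root system in which nodal roots grow from the stem base and carry lateral roots of 2 kinds: slender S-type laterals that stay short and bear no branches, and thicker L-type laterals that elongate and branch again. Jasmonate is a hormone made from membrane lipids on wounding, attack and other stresses. JAZ proteins, part of the TIFY family, repress jasmonate responses and are themselves induced by the hormone, so that their transcripts are commonly read as a measure of jasmonate signalling. WRKY, NAC, MYB and DREB proteins are families of transcription factors with many stress-induced members, and the kinases SAPK and CIPK relay osmotic, abscisic acid and calcium signals. Trehalose 6-phosphate is a signal of sugar status that trehalose phosphate phosphatases remove.

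The libraries held 7194615 fragments in salt and 5620282 in control L-type roots, 7908373 in salt and 7897875 in control nodal roots, and 8711710 in salt and 6229661 in control S-type roots. In bulk roots, fewer cells of a type and less RNA per cell cannot be told apart. Summed over the 3 secondary wall cellulose synthases CESA4, CESA7 and CESA9, markers of xylem, the level was 1169 scaled fragments in salt and 758 in control L-type roots, 4613 in salt and 6252 in control nodal roots, and 131 in salt and 126 in control S-type roots. The 6 markers of dividing cells summed to 3381 in salt and 3359.97 in control L-type roots, 3274 in salt and 3292 in control nodal roots, and 1293 in salt and 1231 in control S-type roots. The 2 root hair genes summed to 79.1 in salt and 55.1 in control L-type roots, 500 in salt and 401 in control nodal roots, and 135 in salt and 108 in control S-type roots. The part of these shifts in the results below was not tested. The green tissue marker CAB2R was at 0 in the salt and 3.76 in the control L-type library, and the root marker on the list could not be matched to a named gene.

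In the L-type pair, 408 genes were at least 2-fold lower under salt, which is 3.08% of the genes past the floor, and the 175 genes of the rule (1.32%) make up 42.9% of them. Of the other 233, 59 missed only the nodal limit, 89 missed only the S-type limit and 85 missed both. Applied the other way round, the same rule found 34 genes higher under salt only in L-type roots. It found 13 genes lower and 47 higher only in nodal roots, and 39 lower and 36 higher only in S-type roots. The L-type lowered set was thus the largest of the 6 sets defined in this way, by counts from single pairs of libraries. In the authors' deposited table, which compares single libraries, 0 of the 175 genes were called in the L-type pair, against 5 of all 20458 genes tested there (0.0244%). The smallest q-value of any of the 175 genes in that pair of the authors' deposited table was 0.184, for Os01g0628700.

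The 175 genes had a median level well above that of all genes in control L-type roots, where the rule favours a high value. These genes also had a median well above that of all genes in both S-type libraries. Their median was 269 scaled fragments in salt and 682 in control L-type roots, 219 in salt and 235 in control nodal roots, and 584 in salt and 597 in control S-type roots. The control L-type median lay near the S-type medians and the salt L-type median near the nodal ones, with the drop between the L-type libraries fixed by the rule. Over all 13254 genes past the floor the medians were 251 in salt and 257 in control L-type roots. They were 240 in salt and 238 in control nodal roots, and 266 in salt and 271 in control S-type roots. For the other 233 genes lowered in L-type roots the medians were 155 in salt and 455 in control L-type roots. The genes made up 1.28% of the scaled fragments in salt and 2.93% in control L-type roots, 0.957% in salt and 1.01% in control nodal roots, and 2.44% in salt and 2.24% in control S-type roots.

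**Figure D1:**
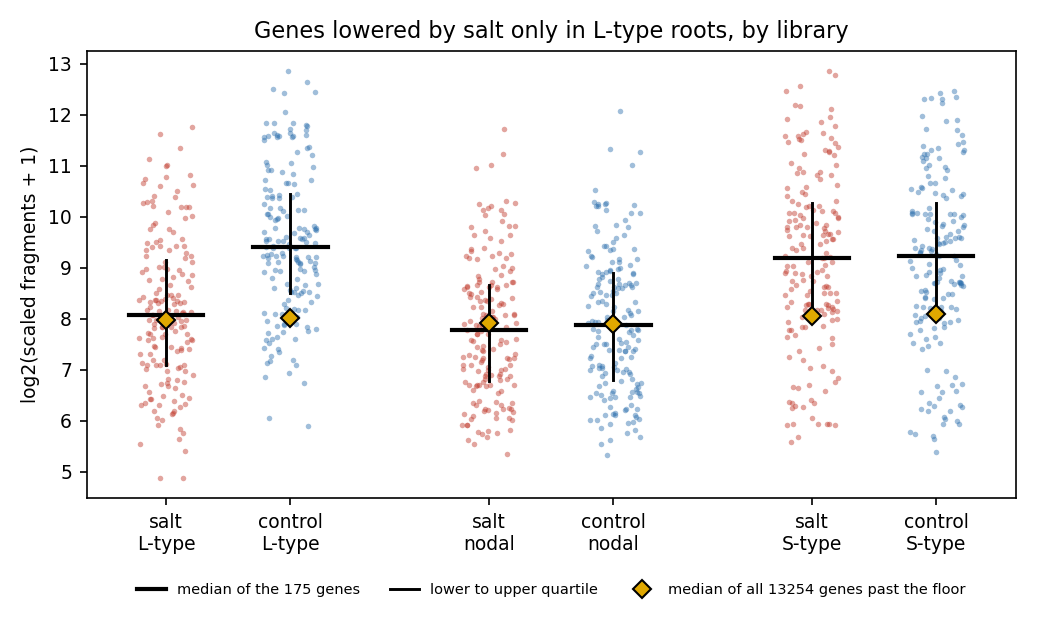
Level of each of the 175 genes (points) as log2 of scaled fragments plus 1 in the 6 libraries, salt in red and control in blue, with the median and quartiles of these genes in black and the median of all 13254 genes past the floor as a diamond. The median was 269 in salt and 682 in control L-type roots, while the salt and control medians of nodal roots (219 and 235) and of S-type roots (584 and 597) lay close together.

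By the rule every gene was lower in salt L-type roots. The L-type log2 ratio ran between -2.58 and -1.0041 with a median of -1.23, which is a median of 2.34-fold lower. Of the 175 genes, 29 were at least 3-fold lower and 105 were less than 2.5-fold lower. In nodal roots, where the rule allowed only small ratios, 123 genes had a ratio below 0 and 52 above it, with a median of -0.14. In S-type roots 73 were below 0 and 102 above it, with a median of 0.07. Among all genes within the same limits, 52.2% had a ratio below 0 in nodal roots and 52.3% in S-type roots. A combination of a nodal ratio below 0 with an S-type ratio above 0 was held by 71 genes, and the opposite combination by 21. The shares of these combinations over all genes within both limits were not computed, so nothing is read from these counts.

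The place of L-type roots among the root types uses the same L-type values as the rule, and a rule that asks for a lower salt L-type value beside 2 flat pairs favours a high control and a low salt L-type place. The counts that follow are therefore descriptions of the chosen genes, and the shares over all genes are given as background from which nothing is read. Under salt, the L-type level was above both other root types in 14 genes (8%, against 19.5% of all genes past the floor). It was between them in 125 (71.4%, against 60.4%) and below both in 36 (20.6%, against 20.1%). Under control, it was above both nodal and S-type roots in 115 of the 175 genes (65.7%, against 18.8% of all genes past the floor), between them in 59 (33.7%, against 58.3%), and below both in 1 (0.571%, against 22.8%). For the other 233 genes lowered in L-type roots, the L-type level was above both in 7.30% and below both in 31.8% under salt, and above both in 54.9% under control, so most of them share the high control place. Of the genes, 74 were above both under control and between under salt, 27 were above both under control and below both under salt, and 51 were between in either case.

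**Figure D2:**
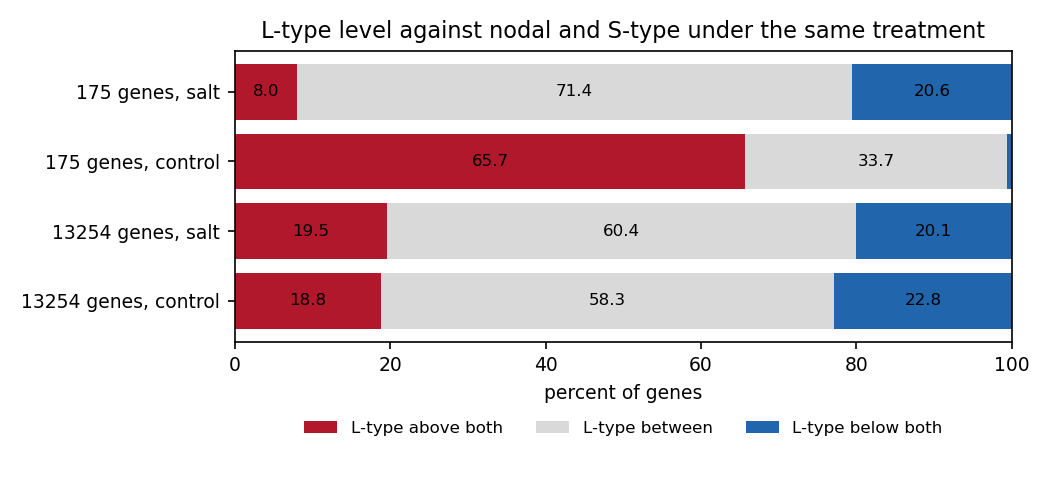
Percent of genes whose L-type level was above, between or below the nodal and S-type levels of the same treatment, for the 175 genes and for all 13254 genes past the floor, salt over control. L-type was above both in 8% of the 175 genes under salt and in 65.7% under control, against 19.5% and 18.8% of all genes.

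Under salt, L-type roots were within 2-fold of nodal roots in 149 of the 175 genes (85.1%, against 95.7% of all genes past the floor), at least 2-fold above them in 21 (12%, against 3.4%), and at least 2-fold below S-type roots in 84 (48%, against 8.65%). Of the other 233 lowered genes, 51.5% were at least 2-fold below S-type roots under salt. Under control, only 41 genes (23.4%, against 86.6%) were within 2-fold of nodal roots, and 134 (76.6%, against 9.72%) were at least 2-fold above them. Among the other 233 lowered genes, 61.4% were at least 2-fold above nodal roots under control. The control L-type level was within 2-fold of the S-type level in 131 genes (74.9%, against 82.7%) and at least 2-fold above it in 36 (20.6%, against 8.65%). Many of these genes differed between S-type and nodal roots: S-type was at least 2-fold above nodal in 112 under salt (64%, against 15.3%) and in 95 under control (54.3%, against 18.7%). The other 233 lowered genes shared much of this difference, with 54.9% under salt and 48.1% under control. In 92 genes the S-type level was at least 2-fold above the nodal level under both treatments. For these the L-type level was placed on a log2 scale on which 0 is the nodal and 1 the S-type level of the same treatment. The median place was 0.30 in salt and 0.94 in control L-type roots. It was 0.27 under salt and 0.79 under control for 88 such genes among the other 233, and 0.36 under salt and 0.52 under control for 1715 such genes among all past the floor. With S-type above nodal, the rule itself moves the place towards nodal under salt, as it did in 92 of 92 genes.

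The highest of the 6 libraries was control L-type for 104 genes (59.4%), an S-type library for 67 (38.3%) and a nodal library for 4 (2.29%). The rule bars the salt L-type library from this place. Among the other 233 genes lowered in L-type roots the shares were 44.2% for control L-type, 48.5% for S-type and 7.30% for nodal libraries, and over all genes past the floor they were 9.55%, 47.5% and 32.5% in the same order. In the 104 genes the median was 269 in salt and 672 in control L-type roots, 218 in salt and 231 in control nodal roots, and 395 in salt and 415 in control S-type roots. In the 67 genes highest in S-type roots the median was 313 in salt and 801 in control L-type roots, and 914 in salt and 926 in control S-type roots. The named genes fall in these 2 groups, 8 in the first and 12 in the second. The 4 genes highest in nodal roots, Os04g0639100, Os10g0416800, Os07g0570600 and Os06g0570100, have no name in the sources used here and were singled out after their values were seen.

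Supported gene names, which passed a check of position and length, were available for 20 of the 175 genes, 10 from gene lists and 10 added after their values were seen. Among the hormone genes, the set held AOC (Os03g0438100, chromosome 3, 18485681 to 18486983 on IRGSP-1.0), the allene oxide cyclase that makes the precursor of jasmonate. AOC had 745 scaled fragments in salt and 1693 in control L-type roots, 909 in salt and 1221 in control nodal roots, and 1019 in salt and 1059.5 in control S-type roots. It was thus highest in control L-type and lowest in salt L-type roots, with a log2 ratio of -1.18 in L-type (95% counting interval -1.31 to -1.06). The interval covers counting error only, since fragments are not independent molecules and there is no replicate.

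The JAZ repressor genes in the set were TIFY11A, TIFY11E and TIFY10A. TIFY11A (Os03g0180800, chromosome 3, 4232003 to 4233038) had 484 in salt and 1339 in control L-type roots, 219 in salt and 301 in control nodal roots, and 1179 in salt and 873 in control S-type roots. Its S-type log2 ratio of 0.43 had the sign opposite to its L-type ratio of -1.47 (-1.62 to -1.32). TIFY11E (Os10g0391400, chromosome 10, 13031179 to 13032006) had 281 in salt and 737 in control L-type roots, 173 in salt and 215 in control nodal roots, and 286 in salt and 301 in control S-type roots. Only its control L-type library stood apart, with the other 5 between 173 and 301. TIFY10A (Os03g0402800, chromosome 3, 16407694 to 16410007) had 1229 in salt and 3209.6 in control L-type roots, 804 in salt and 922 in control nodal roots, and 3853 in salt and 2847 in control S-type roots, a log2 ratio of -1.38 in L-type and 0.44 in S-type roots.

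The list of jasmonate genes holds 10 genes with a supported name past the floor, of which 3 met the rule and so have an L-type ratio of at most -1 by selection. Of the other 7, 5 were at least 2-fold lower in salt L-type roots, with a median log2 ratio of -1.23, and missed a limit in another root type. Over all genes past the floor the L-type median was -0.00164 and 3.08% were at least 2-fold lower. The list was chosen with earlier results of these libraries known, so nothing is read from this difference. TIFY11C had ratios of -2.03 in L-type, -0.50 in nodal and 0.68 in S-type roots, and TIFY11D had -1.74, -0.16 and 0.55 in the same order. The ratios of JAR1, which joins jasmonate to isoleucine to give the active hormone, were -1.23 in L-type, -1.10 in nodal and 0.52 in S-type roots. With the genes added after values were seen, and without those that met the rule, 5 of 10 were at least 2-fold lower in L-type (median log2 ratio -1.05), 1 in nodal (median -0.46) and 0 in S-type roots (median 0.31). TIFY11A, TIFY11B and TIFY11C are close neighbours on chromosome 3, and reads of similar copies may have been divided between them. Os03g0767000, also on the list, met the rule too, but it failed the length check for its name and is not counted.

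**Figure D3:**
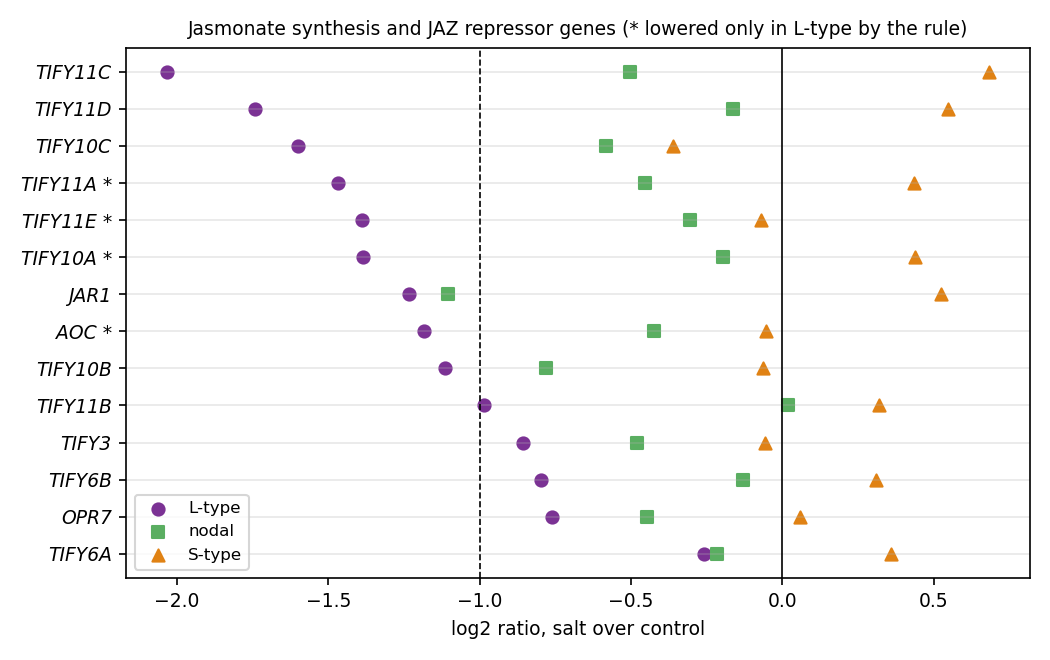
Log2 ratio of salt over control in L-type, nodal and S-type roots for the 14 jasmonate synthesis and JAZ repressor genes with a supported name past the floor. They are ordered by L-type ratio, with a star for the 4 of them that met the rule and a dashed line at -1. Of the 10 genes without a star, 5 have an L-type ratio at or below -1, and the 4 with a star lie there by selection.

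Several transcription factor genes of the set were among its most abundant transcripts. WRKY71 (Os02g0181300, chromosome 2, 4542691 to 4544913), known in rice as a repressor of gibberellin responses in the aleurone and from defence, had 2234 in salt and 5840.5 in control L-type roots, 1121 in salt and 1116 in control nodal roots, and 7014 in salt and 5494 in control S-type roots. In scaled fragments it was level between treatments in nodal roots, higher in salt S-type roots (log2 ratio 0.35) and 2.61-fold lower in salt L-type roots (log2 ratio -1.39, -1.46 to -1.32). On the length-corrected FPKM scale of the authors' deposited table, WRKY71 was at 981 in salt and 971 in control S-type roots. Its nodal levels there were 136 in salt and 151 in control, and its L-type log2 ratio was -1.69. MYB4 (Os04g0517100, chromosome 4, 25842734 to 25844875), a cold-induced factor in rice, had 1346 in salt and 3056 in control L-type roots, 887 in salt and 898 in control nodal roots, and 3067 in salt and 2667 in control S-type roots. NAC6 (Os01g0884300, chromosome 1, 38398995 to 38401481), an activator induced by drought, salt and wounding in rice, had 941 in salt and 1947 in control L-type roots, 488 in salt and 402 in control nodal roots, and 2999 in salt and 2769.7 in control S-type roots. For NAC6 the ratio was above 0 in nodal (0.28) and S-type roots (0.11) and -1.05 in L-type roots.

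DREB1C (Os06g0127100, chromosome 6, 1434717 to 1435951), of the family that binds the dehydration-responsive element, was the scarcest of the named factors, with 196 in salt and 504 in control L-type roots, 135 in salt and 129 in control nodal roots, and 887 in salt and 926 in control S-type roots. Both S-type libraries were above all others, and only the L-type pair differed (log2 ratio -1.36, -1.61 to -1.12). CIGR2 (Os07g0583600, chromosome 7, 23650524 to 23654071), a GRAS protein induced by chitin oligomers and gibberellin in rice, had 2035 in salt and 4273 in control L-type roots, 1186 in salt and 1085 in control nodal roots, and 6091 in salt and 5083 in control S-type roots. Its relative CIGR1, outside the set because its S-type log2 ratio was 0.72, had an L-type ratio of -1.33. Among genes with a supported name, a single gene met the rule on each list of WRKY, of zinc finger and MYB, of NAC and bZIP, and of DREB and ERF factors. Further genes of the set are on these lists under symbols that failed the name check and are not counted. They are Os06g0649000 and Os05g0537100 (WRKY), Os03g0437200 (zinc finger and MYB), Os03g0815100 (NAC and bZIP) and Os02g0654700 (DREB and ERF). Of the other genes with a supported name past the floor, 1 of 2 WRKY factors, 1 of 2 zinc finger and MYB factors, 0 of 3 NAC and bZIP factors and 0 of 4 DREB and ERF factors were at least 2-fold lower in L-type roots, against 3.08% of all genes past the floor. Nothing is read from these counts, because these lists too were chosen with earlier results of the libraries known.

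**Figure D4:**
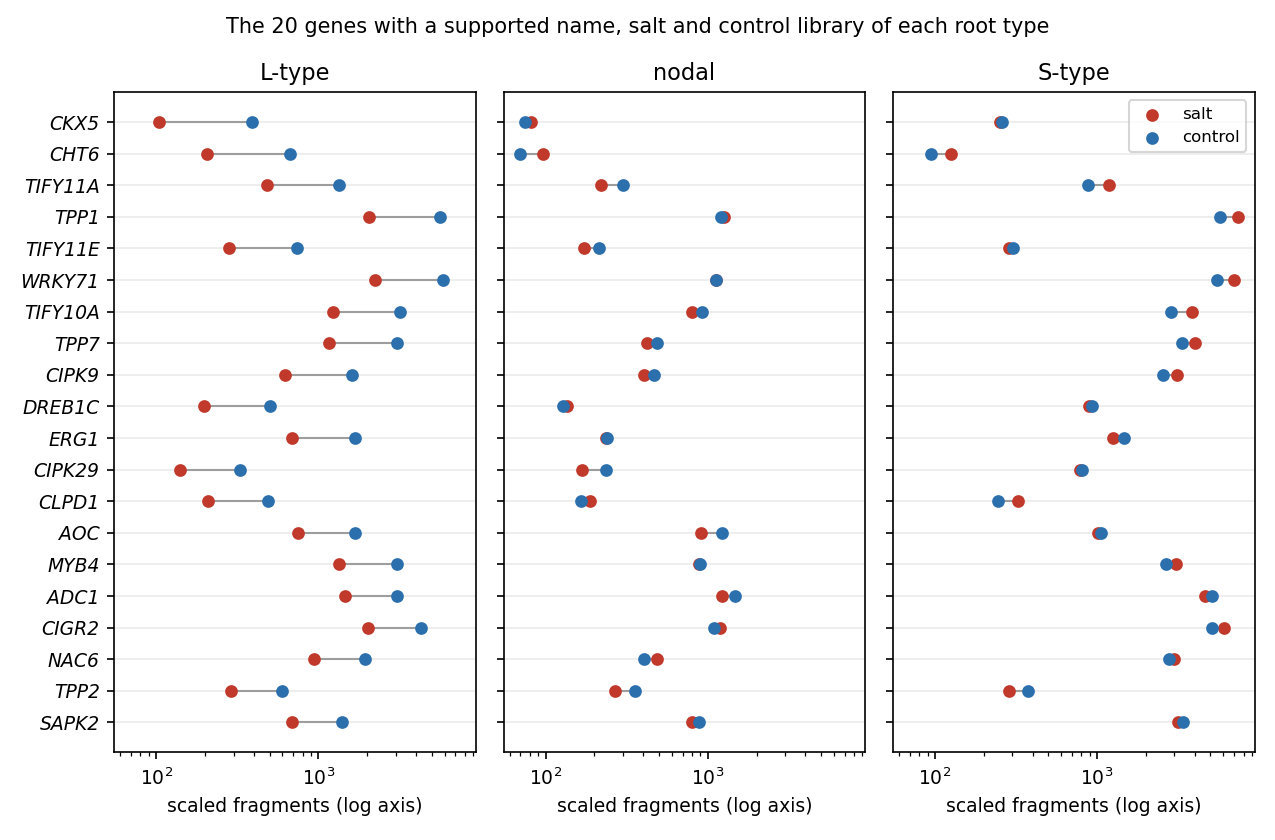
Scaled fragments (log axis) of the 20 genes with a supported name in L-type, nodal and S-type roots, salt in red and control in blue, ordered by L-type ratio. In the L-type panel every salt point lies at least 2-fold left of its control point, from 104 and 387 for CKX5 at the top to 692 and 1399 for SAPK2 at the bottom, and in the other panels the pairs lie close together.

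Among the signalling kinases, 3 genes added after values were seen met the rule. CIPK9 (Os03g0126800, chromosome 3, 1514813 to 1519247), a kinase switched on by calcineurin B-like calcium sensors, had 624 in salt and 1624 in control L-type roots, 402 in salt and 469 in control nodal roots, and 3092 in salt and 2531 in control S-type roots. CIPK29 (Os07g0678300, chromosome 7, 28710748 to 28712470), of the same family, had 139.8 in salt and 331 in control L-type roots, 168 in salt and 235 in control nodal roots, and 783 in salt and 810.1 in control S-type roots. Its salt L-type level was below both nodal levels, and its nodal log2 ratio of -0.48 was near the limit. SAPK2 (Os07g0622000, chromosome 7, 25717836 to 25722009), an SnRK2 kinase activated by osmotic stress in rice, had 692 in salt and 1399 in control L-type roots, 796 in salt and 889 in control nodal roots, and 3153 in salt and 3362 in control S-type roots. Of 4 calcium signalling genes on the list past the floor, 0 were at least 2-fold lower in L-type roots, with a median log2 ratio of -0.65. The lowest of these was CIPK15, at -0.95.

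In sugar signalling, 3 trehalose phosphate phosphatase genes, which encode enzymes that turn trehalose 6-phosphate into trehalose, met the rule, TPP1 and TPP2 from a list and TPP7 by a name added later. TPP1 (Os02g0661100, chromosome 2, 26767606 to 26771623) had 2063 in salt and 5599 in control L-type roots, 1264 in salt and 1208 in control nodal roots, and 7423 in salt and 5689.8 in control S-type roots. TPP7 (Os09g0369400, chromosome 9, 12251874 to 12254061), known in rice for germination without oxygen, had 1168 in salt and 3038 in control L-type roots, 422 in salt and 483 in control nodal roots, and 3995 in salt and 3344 in control S-type roots. Both were near their S-type level in control L-type roots and well below it in salt L-type roots. TPP2 (Os10g0553300, chromosome 10, 21706918 to 21710973) had another pattern, with 289.7 in salt and 599 in control L-type roots, 269.5 in salt and 354 in control nodal roots, and 287 in salt and 377 in control S-type roots. All 3 TPP2 pairs were lower under salt, and its nodal and S-type log2 ratios of -0.39 and -0.39 lay inside the limit. The L-type ratios of 3 other family members past the floor were 0.10 for TPP4, -0.71 for TPP6 and 0.15 for TPP9.

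The remaining named genes encode enzymes and stress proteins. CKX5 (Os01g0775400, chromosome 1, 32788486 to 32792747), a cytokinin oxidase that degrades the hormone cytokinin, had 104 in salt and 387 in control L-type roots, 81.3 in salt and 74.7 in control nodal roots, and 250.3 in salt and 258 in control S-type roots. At 3.70-fold lower (log2 ratio -1.89, -2.22 to -1.58) it had the lowest L-type ratio of the named genes, and its other 2 pairs were nearly level. CHT6 (Os02g0605900, chromosome 2, 23743044 to 23744109), a chitinase, had 206 in salt and 670.2 in control L-type roots, 96.2 in salt and 69.5 in control nodal roots, and 125 in salt and 95.2 in control S-type roots. Both L-type libraries of CHT6 were above the 4 others, so L-type roots were the highest root type under either treatment. The nodal and S-type log2 ratios of CHT6 were 0.46 and 0.39, against -1.70 in L-type roots.

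ADC1 (Os06g0131300, chromosome 6, 1674664 to 1677406), an arginine decarboxylase at the start of polyamine synthesis, had 1451 in salt and 3048 in control L-type roots, 1219.9 in salt and 1479.5 in control nodal roots, and 4657 in salt and 5130.4 in control S-type roots. ERG1 (Os01g0841700, chromosome 1, 36135783 to 36137406), a small C2-domain protein induced by fungal elicitor in rice, had 685 in salt and 1686 in control L-type roots, 235 in salt and 241 in control nodal roots, and 1261 in salt and 1467 in control S-type roots. Nodal roots were low for ERG1 under both treatments. CLPD1 (Os02g0526400, chromosome 2, 19251343 to 19256293), a Clp chaperone whose Arabidopsis relative is induced by dehydration and senescence, had 209.7 in salt and 492 in control L-type roots, 187 in salt and 164 in control nodal roots, and 327 in salt and 244 in control S-type roots.

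Most genes with the lowest L-type ratios carry no supported name. Os01g0628700 (chromosome 1, 25114082 to 25118407) was the lowest, with 354 in salt and 2116 in control L-type roots, 407 in salt and 499.5 in control nodal roots, and 1577 in salt and 1405 in control S-type roots. It was 5.96-fold lower under salt (log2 ratio -2.58, -2.74 to -2.42), above all other libraries in control L-type roots and below them all in salt L-type roots. Os02g0205500 (chromosome 2, 5930243 to 5933099) had 603 in salt and 2905 in control L-type roots, 419 in salt and 557 in control nodal roots, and 966 in salt and 1067 in control S-type roots. Os07g0559700 (chromosome 7, 22353082 to 22355941) had 716 in salt and 3393 in control L-type roots, 769 in salt and 727 in control nodal roots, and 1426 in salt and 1408 in control S-type roots. For both, the control L-type library was more than 2-fold above each of the 5 others, and for Os07g0559700 the other 2 pairs were nearly level.

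Os06g0203600 was 4.47-fold lower, with 195 in salt and 876 in control L-type roots. Os02g0626600 (chromosome 2, 24992881 to 24995414), 4.22-fold lower, had 725 in salt and 3062 in control L-type roots, 644 in salt and 804 in control nodal roots, and 1351 in salt and 1319 in control S-type roots. It and Os02g0626400, also in the set, lie on chromosome 2 between the phenylalanine ammonia-lyase genes PAL (24973447 to 24977287) and ZB8 (25006494 to 25009018). Os02g0626400 is itself on the list of phenylalanine ammonia-lyases and lignin enzymes, under a symbol that failed the name check. ZB8 had an L-type ratio of -1.63 but a nodal ratio of -0.67, outside the limit, and the ratios of PAL were -0.22 in L-type and -0.14 in nodal roots. The 6 further genes among the 12 lowest that have no supported name, Os03g0318400, Os06g0649000, Os08g0482600, Os06g0645600, Os03g0437200 and Os02g0532900, were 3.62-fold to 3.79-fold lower. Of these, Os06g0649000 was at 299 scaled fragments or below in every library except control L-type, with 272 in salt and 1035 in control L-type roots, 168 in salt and 193 in control nodal roots, and 299 in salt and 283 in control S-type roots. Os06g0649000 is on the WRKY list and Os03g0437200 on the zinc finger and MYB list, both under symbols that failed the name check.

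Most of the 10 genes with the highest control L-type level were nearer to the limit of -1 than the median of the set (-1.23). WRKY71 (log2 ratio -1.39) and TPP1 (-1.44) were further from the limit than this median. Os04g0688100 (chromosome 4, 35187442 to 35189187) had 3476 in salt and 7388 in control L-type roots, 1991 in salt and 2082 in control nodal roots, and 3207 in salt and 4034 in control S-type roots, 2.12-fold lower in L-type. Os05g0129300 (chromosome 5, 1717709 to 1719083) had 3148 in salt and 6414 in control L-type roots, 2419 in salt and 2560.3 in control nodal roots, and 5690.2 in salt and 5201 in control S-type roots. For Os02g0626400 the levels were 2605 in salt and 5503 in control L-type roots, 3389 in salt and 4312 in control nodal roots, and 3539 in salt and 3758 in control S-type roots, so the salt L-type library was the lowest of the 6. The other members of the 10 highest were WRKY71, TPP1 and CIGR2, given above, with Os10g0191300, Os03g0741100, Os03g0815100 and Os04g0119500, which were 2.02-fold to 2.2-fold lower. On the length-corrected scale of the authors' deposited table, the median of the 175 genes was 28.6 FPKM in salt and 78.6 FPKM in control L-type roots.

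The share of genes that met the rule was larger among abundant transcripts. With genes grouped by their mean over the 6 libraries, 12 of 1838 with a mean under 100 scaled fragments met it (0.653%), 52 of 3445 between 200 and 400 (1.51%), and 21 of 714 at 1600 or more (2.94%). Of the genes at least 2-fold lower in L-type roots, the rule kept 25.5% of 47 under 100, 49.5% of 105 between 200 and 400, and 48.8% of 43 at 1600 or more. The part of the flat limits in the rise of the share was not tested. Genes higher under salt only in L-type roots were 0.707% of the group under 100, 0.203% between 200 and 400 and 0.280% at 1600 or more. In the last group this was 2 genes. Of the 175 genes, 61 had at least 1000 scaled fragments in control L-type roots, and 25 in salt L-type roots.

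**Figure D5:**
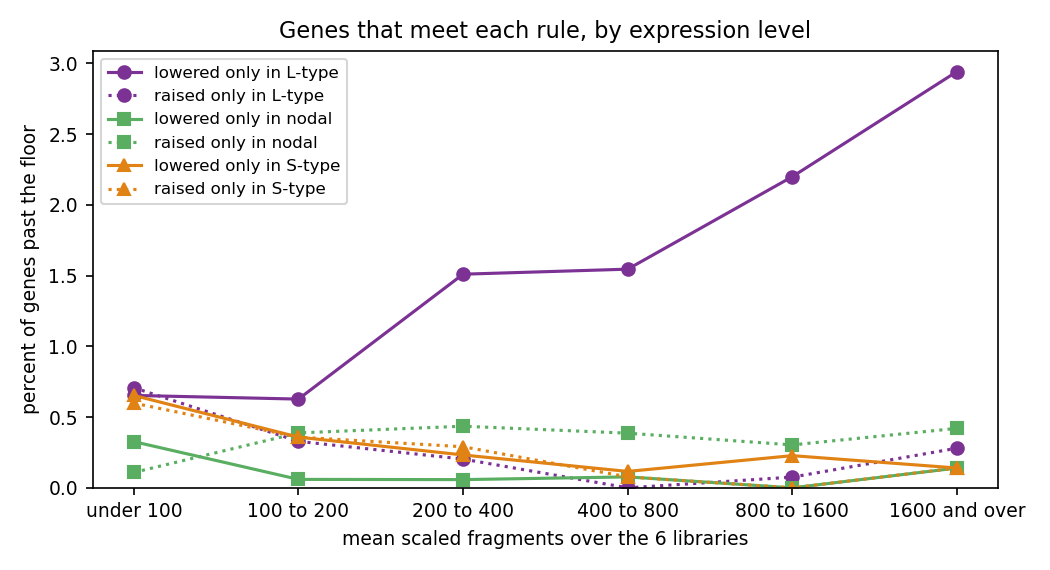
Percent of the genes past the floor that met the rule (lowered only in L-type) or 1 of its 5 mirrored forms, by mean scaled fragments over the 6 libraries. The L-type lowered share was 0.653% under 100 and 2.94% at 1600 or more, and the other 5 shares in the 1600 or more group were between 0.140% and 0.420%.

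The counting intervals bear on each limit of the rule. The L-type interval lay wholly below the nodal and the S-type interval in 168 of the 175 genes, and wholly at or below -1 in 95. Both other intervals lay wholly within 0.5 of 0 in 76 genes, so for most of the set counting error alone reaches past a limit. The fewest fragments behind a value were 31 in salt and 47 in control L-type roots. Just inside the L-type limit were Os04g0689000 at -1.0041 and Os02g0555900 at -1.01, and just outside it Os06g0220500 at -0.998 and Os05g0287800 at -0.994. For the nodal limit, Os04g0406600 at -0.485 and Os01g0739200 at -0.480 were inside, and Os02g0682300 and Os02g0664000, both at -0.503, outside. For the S-type limit, Os03g0654400 at 0.4997 and Os11g0227200 at -0.487 were inside, and Os05g0171900 at -0.5002 and Os10g0147200 at -0.507 outside. For the floor, Os04g0464100 and Os02g0610500, both at 50.4, were inside, and Os07g0572100 at 48.7 and Os01g0113650 at 48.1 outside.

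The genes were spread over all 12 chromosomes, with the most on chromosome 1 (29), chromosome 3 (25), and chromosomes 2 and 4 (23 each), and the fewest on chromosome 12 (4). As shares of the genes past the floor these were 1.49%, 1.33%, 1.41%, 2.04% and 0.587% for chromosomes 1, 3, 2, 4 and 12, against 1.32% over all chromosomes. A single pair, Os01g0124100 and Os01g0124200, were immediate neighbours, on chromosome 1 from 1345117 to 1348723. The gene models had a median span of 2949 bases, against 4358.5 for all genes past the floor. Of the 175, 56 (32%, against 27.9%) overlap another gene model, and for these the counting settings decide which model a fragment goes to. Of the 106 named genes on the gene lists past the floor, 10 met the rule (9.43%, against 1.32% of all genes past the floor). The lists were chosen with earlier results of these libraries known, so nothing is read from this difference. Lists of aquaporins, auxin, cell cycle, clock, heat shock, and nitrogen, phosphate and iron uptake genes gave 0. The iron and metal uptake list had 6 of 9 genes at least 2-fold lower in L-type roots (median log2 ratio -2.49), but 6 of 9 were as much lower in S-type roots (median -3.70), and 0 met the rule.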

How the data were processed

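Per the submitters' processing notes, which state no settings, the build was IRGSP-1.0, and the tools named are Cuffdiff 2.2.1, Cufflinks 2.2.1, TopHat2 2.0.11, Bowtie and Trimmomatic 0.32. The values of the deposited count table are a scaled signal, in which 99.89% to 99.97% of values per library were whole multiples of 1 step (tolerance 0.02 fragments). The authors' deposited table holds FPKM, p-values and q-values per pair of libraries. Ratios, medians and counts were computed with Python 3.11.15, pandas 2.3.3 and SciPy 1.17.1, with a pseudocount of 1. Exact conditional binomial 95% intervals used the whole fragments. With 1 library per group, no test of salt within a root type was made, and an edgeR 4.0.16 test of a salt effect shared by the root types was added as an alternative. The rule and interval scripts were tested on simulated data.

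The members and lists were chosen with earlier results of these data known. The text names the 12 lowest and 10 highest members, members on lists and genes next to the limits. Symbols were recalled with their identifiers and kept where a RefSeq table of another assembly (ASM3414082v1) placed them at the matching position with a like length: 177 of 279 from the lists and 25 of 26 added after values were seen. Coordinates are as the authors' deposited table gives them. A planned promoter motif search was not run, because no promoter sequences were at hand.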

Additional observations from a re-analysis of the deposited data

How the results depend on the processing

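The count of 175 was 175 with a pseudocount of 0.5 or 5, 222 and 136 at a floor of 20 and 100, and between 139 (library totals) and 188 (FPKM) under 4 other scalings; of the 175, 123 remained with library totals and 158 with FPKM. It was 91 at a floor of 200, 310 with an L-type limit of -0.8, 37 with -1.5, 89 with a flat limit of 0.3 and 276 with 0.8. At floors of 20, 100 and 200 the mirrored counts were 84, 17 and 6 for higher only in L-type, 38, 3 and 2 for lower and 81, 26 and 10 for higher only in nodal, and 91, 18 and 8 for lower and 97, 17 and 5 for higher only in S-type roots, while other alternatives left them within 1.5 times. The control L-type level was below both root types in 0 genes with library totals. Median FPKM, another unit, was 28.6 in salt and 78.6 in control L-type, 23.2 in salt and 26.2 in control nodal, and 68.2 in salt and 64.0 in control S-type roots. The L-type ratios of the 46 genes of the set that are named or given by identifier stayed below 0 in every setting. With library totals 13 of the 46 were above the limit of -1, among them NAC6 (-0.96), SAPK2 (-0.93), CIGR2 (-0.98), ADC1 (-0.98), TPP2 (-0.96) and Os02g0626400 (-0.99). With FPKM and with a pseudocount of 5 it was 2 each, Os02g0555900 and Os02g0610500. No paired analysis was possible because each group holds 1 library, so a pair within a root type has no spread of its own; pairing by root type is possible only for an effect shared by the root types, as in the fit below.

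With 1 library per group, a difference between salt and control L-type roots cannot be told apart from one between these samples. An edgeR 4.0.16 quasi-likelihood test on the recovered fragments, additive in root type and treatment, was added after the data were seen. It called 28 of 20136 genes for salt (0.139%) and 0 of the 175. It measures an effect shared by the root types, and so it is not a test of the rule. Depth limits the less abundant genes, at 31 fragments at the fewest.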
